A study of Homo sapiens with 6 samples.

Results

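Histone genes were examined in RNA sequencing of K562 cells, an established line from the pleural effusion of a patient with chronic myeloid leukemia in blast crisis. Of 61661 rows in the count table, 82 were protein-coding histone genes: 72 replication-dependent genes, 9 genes of polyadenylated variants and H2AX, which is known to give transcripts of both forms. They were chosen by a rule on symbols that uses no measured value, although earlier results of these data were known when they were chosen. The replication-dependent genes comprised 6 H1, 17 H2A, 19 H2B, 15 H3 and 15 H4 genes, and 25 further histone rows that were not protein-coding were left out. Each of the 3 groups had 2 libraries: shCTR, labelled wild type and carrying a control short hairpin RNA (shRNA), shMETTL3, carrying an shRNA against METTL3, and shMETTL14, carrying an shRNA against METTL14. METTL3 and METTL14 form the enzyme complex that writes N6-methyladenosine on mRNA, and the comparisons asked how gene expression differed after either was lowered. The study's methods describe the METTL3 and control cells as stable lentiviral lines kept by puromycin selection, and the vector of the shMETTL14 cells was not given in the sources used here. RNA came from cells in logarithmic growth, was enriched on oligo(dT) beads and was copied from random primers, so that a transcript without a poly(A) tail would be captured poorly. Nothing in the labels says that the 2 libraries of a group came from separate cultures, and p-values therefore measure only the spread between these libraries.

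Replication-dependent histone genes supply the core histones H2A, H2B, H3 and H4 and the linker H1 during S phase. They are the known exception among animal mRNAs: most have no intron, and their mRNA ends at a short stem-loop, made by cleavage with the U7 small nuclear ribonucleoprotein, in place of a poly(A) tail. The stem-loop is bound by SLBP, which carries the mRNA through processing, translation and decay. Variant genes such as H3-3A, H3-3B, H2AZ1 and H2AZ2 have introns and ordinary poly(A) tails and are expressed through the cell cycle. Some replication-dependent genes are also known to give polyadenylated transcripts that run past the stem-loop to a poly(A) signal downstream, and oligo(dT) selection favours that form.

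The stem-loop was present in the GENCODE transcript model of 32 members, of which 31 were replication-dependent and the other was H2AX. It comprises 16 bases, with arms of 6 bases that pair with each other around a loop of 4. The 6 sequences found are shown because they define the end that an oligo(dT) library should miss, with the loop in capitals.
H2BC9, H2AC6, H2BC21, H3C10 and 13 other genes: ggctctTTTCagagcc
H4C5, H4C8 and 3 other H4 genes: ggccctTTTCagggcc
H2BC4, H2BC5, H2BC7, H3-4 and H3C8: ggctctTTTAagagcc
H4C9, H4C14 and H4C15: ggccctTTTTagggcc
H2AX: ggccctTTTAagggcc
H2AC11: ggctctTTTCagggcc
The search used the letters GGNNNTTTTNANNNCC on the transcript strand, and 0.336% of 19922 protein-coding genes held a match, 67 genes in all. The form in H2AC11 occurred in no other member. A model without a match lacks these letters, or arms that pair, within the annotated transcript. Whether a stem-loop lies past its end or has other letters was not tested. Every model called coding length only below was without a match, as its definition requires.

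The libraries were of similar depth and each targeted gene was lower in its own knockdown. Library totals ran from 19292574 to 20115304 counts. METTL3 had 1788 and 1728 counts in shCTR, 1031 and 938 in shMETTL3, and 1731 and 1498 in shMETTL14. It was lower in shMETTL3 than in shCTR by a log2 fold change of -0.87 ± 0.078 (SE; adjusted p = 3.44e-07, edgeR quasi-likelihood test, Benjamini-Hochberg over 17686 genes, used for every adjusted p below). METTL14 had 656 and 655 counts in shCTR, 752 and 710 in shMETTL3, and 375 and 404 in shMETTL14, a log2 fold change of -0.76 ± 0.089 in shMETTL14 against shCTR (adjusted p = 1.40e-05). All 10 erythroid markers of K562 were counted in every library, at very unequal levels. GATA1 had 4942 to 6032 counts and TFRC 14600 to 17675, whereas HBZ had 103 to 258, HBG2 125 to 138 and HBG1 only 10 to 22. Of 7 myelomonocytic markers, FLT3 and HOXA9 were at 0, MPO at 0 to 1 and CD14 at 1 to 3. The others were counted in every library, ITGAM at 8 to 17, MEIS1 at 101 to 195 and LYZ at 310 to 1273. The summed level of the list was 52.5 to 53.7 CPM (counts per 1000000 counts of the scaled library) in shCTR. It was 21.9 to 22.5 in shMETTL3 and 68.6 to 74.6 in shMETTL14, most of it LYZ. The part of those cell type genes in the histone results was not tested. Library shMETTL14 replicate 2 stood apart in 1 respect that touches the results below. RN7SK, a small nuclear RNA without a poly(A) tail, had 366 counts there and 43 to 83 in the other 5 libraries, while the other listed RNAs without a tail summed to 128 counts there, the highest of the 6 libraries, and to 77 in the lowest. Of these RNAs, 13 of 27 rows were at 0 in every library.

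Replication-dependent histone genes were counted in these poly(A)-selected libraries, though unevenly from gene to gene, and their summed share was higher in both knockdowns. They took 0.189% and 0.194% of all counts in shCTR, 0.218% and 0.220% in shMETTL3, and 0.208% and 0.217% in shMETTL14. The means were 0.191% ± 0.0039 (SD, n = 2), 0.219% ± 0.00087 and 0.213% ± 0.0064. Neither knockdown group overlapped with the control, whereas the knockdown groups lay close to each other. A two-sided exact permutation test of 2 libraries against 2 cannot give a p below 0.333, so these shares are given without a test. After scaling by the trimmed mean of M values (TMM), the summed level was 1949.2 ± 42.3 CPM in shCTR, 2146.9 ± 3.75 in shMETTL3 and 2127.1 ± 67.5 in shMETTL14. Without H1-2 the share was 0.124% and 0.126% in shCTR, 0.138% and 0.141% in shMETTL3, and 0.133% and 0.139% in shMETTL14, in the same order. The polyadenylated variants, which need no read-through to be captured, took 0.178% and 0.185% of counts in shCTR, 0.194% and 0.199% in shMETTL3 and 0.187% and 0.193% in shMETTL14, so that their share too was higher in both knockdowns without overlap. After TMM scaling their sum was 1814.8 and 1885.2 CPM in shCTR, 1902.4 and 1948.8 in shMETTL3 and 1873.9 and 1929.4 in shMETTL14, and shMETTL14 then overlapped with shCTR.

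**Figure D1:**
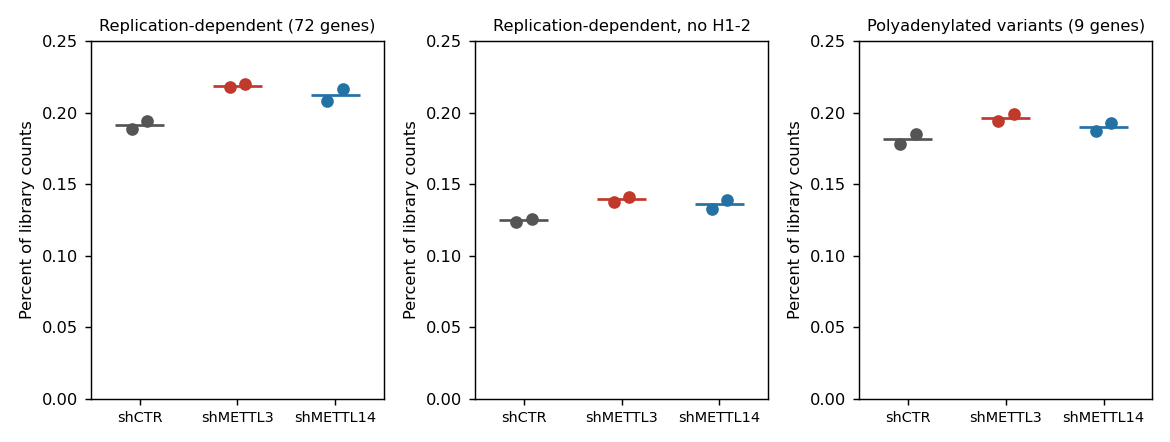
Percent of each library's counts on all 72 replication-dependent histone genes, on the same genes without H1-2, and on the 9 polyadenylated variant genes, with 1 point for each library and a line at the group mean. The shCTR libraries sit at 0.189 and 0.194 percent in the left panel, and every knockdown library sits at 0.208 percent or above.

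A single linker histone gene carried the largest part of those counts. H1-2, which encodes linker histone H1.2, had 12897 and 13228 counts in shCTR, 15557 and 15359 in shMETTL3, and 14780 and 15373 in shMETTL14. It accounted for 34.0% to 36.9% of replication-dependent counts in each library, and the 8 most counted genes for 77.8% to 80.5%. By family, the mean share of replication-dependent counts in shCTR was 35.1% for H1 genes, 30.6% for H2B, 13.3% for H2A, 12.3% for H4 and 8.81% for H3, and in shMETTL3 it was 36.7%, 30.3%, 12.4%, 12.2% and 8.3%. In shMETTL14 it was 36.6%, 29.6%, 12.6%, 12.4% and 8.76%. Within replication-dependent counts, the H1 share was lowest in both shCTR libraries and the H2A share was highest there, without overlap with either knockdown. As a percent of all counts of a library, the H2A genes were instead lowest in shCTR, at 0.0252% and 0.0256%. They took 0.0268% and 0.0274% in shMETTL3, and 0.0265% and 0.027% in shMETTL14. On the scale of CPM per kilobase of annotated exon, averaged over 6 libraries, the 8 highest replication-dependent genes were H1-2 at 1151.9, H2BC12 at 563.1, H3C10 at 123.0, H4C9 at 115.5, H2BC11 at 77.1, H2AC6 at 61.1, H2BC5 at 57.5 and H2AC25 at 50.9. The order of H3C10 and H4C9 is not resolved, since their levels before division by length were 140 to 167 CPM and 127 to 160 CPM over the libraries. These values depend on the annotated length: the GENCODE model of H1-2 holds 642 bases of coding sequence, whereas its RefSeq gene spans 731 bases.

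Among variants, H2AZ1, the H2A variant found at promoters, stood highest per length at 148.7 CPM per kilobase. The H3.3 genes H3-3A and H3-3B, which encode the same replacement histone, followed at 123.5 and 110.0, then H2AX, the variant phosphorylated at DNA breaks, at 89.8, H1-10, encoding H1.10, at 84.2, H2AZ2 at 47.1 and MACROH2A1, a variant with a large globular domain, at 7.66. H1-7 had 0 to 2 and the oocyte gene H1-8 had 0 in each, where a count of 0 allows up to 3 counts, and this covers counting error only. Counts of H1-10, H2AZ1, H3-3A, H3-3B and MACROH2A1 may include or lose reads of genes on the opposite strand that overlap their exons, since strandedness was not given in the sources used here.

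Detection was very uneven across the replication-dependent genes. Of 72 genes, 8 had no count in any library, 8 more never exceeded 3 counts, 24 had at least 100 in every library and 9 at least 1000. The filter on low counts passed 41 of the 72, made up of 5 H1, 6 H2A, 15 H2B, 6 H3 and 9 H4 genes, and the remaining 31 never exceeded 45 counts. By the part of genes passing, H2B was thus the highest core family, at 15 of 19, and H2A the lowest, at 6 of 17. By counts the lowest core family was H3, as given above. In 16 of the 72 genes most of the transcript sequence, at least 50% of windows of 100 bases, is shared with another gene, and these counts are uncertain because reads could be split or dropped; 8 of the 16 passed the filter.

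Levels differed widely between kinds of gene model. In GENCODE, 24 of the 72 replication-dependent genes have a model that runs at least 50 bases past the stem-loop and 7 have one that ends within 50 bases of it. Of those without a match, 35 are of coding length only and 6 are of another kind. Coding length only means a single transcript with a single exon and a length that is a multiple of 3. The rule did not check the coding sequence itself: H4C3 is in this group at 435 bases and H4C1 at 312. Median levels per kilobase were 9.6 CPM for models past the stem-loop and 3.89 for those ending near it. They were 2.46 for the other models without a match and 0.308 for coding length only, a description over genes and not a test. Of the 24 genes with a model past the stem-loop, 15 had at least 100 counts in every library, against 5 of the 35 of coding length only. H1-2 and H2BC12 were the exceptions, the most abundant of all with a model of coding length only, and H3C2, H2BC17 and H4C12 were the other 3 of those 5. Reads past an annotated end are not counted, so a short model and a low level of RNA cannot be told apart here. Which annotation release the submitters counted on was not given in the sources used here.

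**Figure D2:**
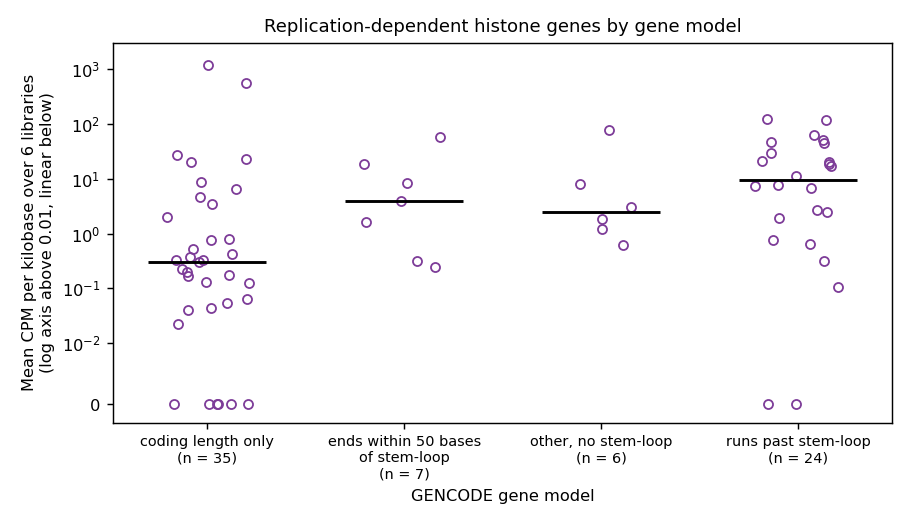
Mean level of each of the 72 replication-dependent genes over 6 libraries, in CPM per kilobase of annotated exon, grouped by the GENCODE model, with 1 circle for each gene and a line at the median. The median was 9.6 for models that run past the stem-loop and 0.308 for models of coding length only, and H1-2 at 1151.9 and H2BC12 at 563.1 lie far above the others of that last group.

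Many H2A and H2B genes are arranged head to head and share the stretch of DNA between their start sites. In RefSeq, 12 replication-dependent pairs had start sites 194 to 248 bases apart. Both genes of the pair had at least 50 counts in every library for 5 pairs, and in 5 others the H2A gene never exceeded 10 counts while the H2B gene had at least 100 in every library. No pair had the reverse pattern. H2BC12 had 3695 to 4733 counts and its partner H2AC12 had 2 to 8, although the level per kilobase of H2AC11 and H2BC11, a neighbouring pair, was 45.1 and 77.1 CPM. H2BC21 had 1870 to 2198 counts against 0 to 3 for H2AC20, H2BC15 had 799 to 887 against 0 for H2AC15, H2BC7 had 418 to 543 against 0 to 2 for H2AC7, and H2BC17 had 134 to 220 against 0 to 1 for H2AC17. In all 5 of these pairs the H2A model held coding sequence only, and the same was true of 2 of the H2B models. The low counts of 3 of these H2A genes are uncertain, since H2AC15 overlaps an exon of H2BC15 on the opposite strand, H2AC17 overlaps an exon of H3C12 on its own strand, and H2AC7 shares 97.6% of its sequence windows with an overlapping gene on its own strand, and reads that fall in 2 genes may not be counted for either. The genes of these pairs, other than those named by the rule on level or change, were chosen after their values were seen.

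**Figure D3:**
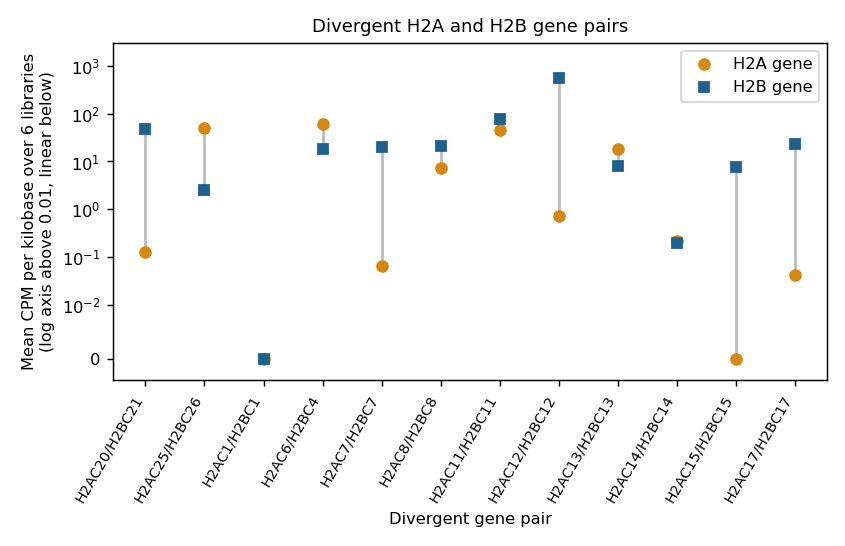
Mean level over 6 libraries, in CPM per kilobase of annotated exon, of the H2A gene and the H2B gene in each of 12 divergent pairs, in the order of their positions, with a line joining the genes of a pair. The H2B gene lies far above its partner in 5 pairs, and H2BC12 at 563 stands over H2AC12 at 0.746.

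The DNA upstream of H2BC11 and of H2BC12 is shown because these neighbouring and similar promoters serve one pair with both genes counted and one whose H2A gene had at most 8 counts. Each run covers 250 bases before the start site on the minus strand of chromosome 6 (GRCh38.p14, from RefSeq), begins inside the first bases of the H2A partner, which is read in the other direction, and ends next to the H2B start site. Capitals mark the CCAAT box (CCAAT or ATTGG) and the TATA box (TATAAA or TTTATA), and the TATAAA and TTTATA matches overlap near the H2A end.
H2BC11, chr6:27132796-27133045: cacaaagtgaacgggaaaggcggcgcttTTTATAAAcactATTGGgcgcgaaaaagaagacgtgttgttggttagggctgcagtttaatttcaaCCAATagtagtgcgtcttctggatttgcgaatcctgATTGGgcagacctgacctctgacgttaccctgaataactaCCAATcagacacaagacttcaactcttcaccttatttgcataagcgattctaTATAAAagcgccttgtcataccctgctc
H2BC12, chr6:27146859-27147108: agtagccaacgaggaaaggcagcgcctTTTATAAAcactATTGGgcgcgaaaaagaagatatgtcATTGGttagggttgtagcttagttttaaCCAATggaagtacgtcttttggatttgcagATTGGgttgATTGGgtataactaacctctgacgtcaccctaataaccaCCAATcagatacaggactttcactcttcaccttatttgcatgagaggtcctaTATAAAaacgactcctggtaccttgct
The runs were identical at 203 of 254 aligned positions, or 79.9%. H2BC11 held 4 CCAAT boxes and H2BC12 held 6, and each had a TATA box near its own start and another facing its partner. A CCAAT box in either direction occurred upstream of 60 of 70 replication-dependent genes with a promoter in the RefSeq table, 85.7%, against 32.0% of all 35116 promoters, and a TATA box in 47, 67.1%, against 10.7%. The promoter of H1-2 is shown for the H1 box (AAACACA or TGTGTTT), which was present in all 6 replication-dependent H1 promoters and in no other replication-dependent gene, against 4.82% of all promoters.
H1-2, minus strand, chr6:26056471-26056720: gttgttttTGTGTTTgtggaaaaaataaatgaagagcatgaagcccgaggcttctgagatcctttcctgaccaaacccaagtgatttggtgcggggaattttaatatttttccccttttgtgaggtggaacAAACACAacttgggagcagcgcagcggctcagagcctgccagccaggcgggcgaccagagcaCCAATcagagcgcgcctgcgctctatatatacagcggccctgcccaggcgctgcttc
It held 2 H1 boxes and 1 CCAAT box. A match is a description of the letters and not evidence of binding.

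Knockdown of METTL3 was accompanied by small differences in a few abundant histone genes. Of 41 replication-dependent genes tested, 5 were higher in shMETTL3 than in shCTR (H2BC4, H2BC12, H4C9, H1-2 and H2BC11) and 2 were lower (H4C5 and H2BC9). This was 17.1% of those tested, near the 16.5% called among all 17686 genes (8.73% higher and 7.73% lower), so the number of calls over the 41 was not particular to histone genes. All 7 calls fell among the 19 genes with a mean of at least 10 CPM, or 36.8% of them. None of the 22 tested genes under 10 CPM was called. The share of all genes called at a matched level is not given here. The median log2 fold change of the 41 was 0.13, against 0.00 over all genes, and 30 of the 41 lay above 0, or 73.2% against 50.5% of all genes. None of the 6 variants tested passed the threshold, and 1 had an unadjusted p under 0.05.

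The rises were modest in size. H2BC12, which encodes an H2B protein, had 3958 and 3695 counts in shCTR and 4652 and 4733 in shMETTL3, and the shMETTL14 libraries had 4351 and 3918. Its level was 197 ± 5.15 CPM (SD, n = 2) in shCTR and 236 ± 0.67 in shMETTL3, a log2 fold change of 0.27 ± 0.063 (adjusted p = 0.00675). The shMETTL3 and shCTR libraries did not overlap, and the shMETTL14 libraries lay below shMETTL3, 1 of them at the level of shCTR. H1-2 rose from 672 ± 27.1 CPM to 779 ± 18.7, a log2 fold change of 0.21 ± 0.055 (adjusted p = 0.0119). H4C9, an H4 gene in the same stretch as H2BC12, had 2515 and 2755 counts in shCTR and 3144 and 3219 in shMETTL3, and its log2 fold change was 0.24 ± 0.066 (adjusted p = 0.0164). The RefSeq span of H2BC12 runs across H4C9 on the opposite strand, so without strand information reads of these genes cannot be told apart there. H2BC4 had 232 and 286 counts in shCTR and 346 and 355 in shMETTL3, the largest rise of the 5 at a log2 fold change of 0.41 ± 0.12 (adjusted p = 0.0222). H2BC11 had 1385 and 1266 counts against 1505 and 1597, a log2 fold change of 0.20 ± 0.067 (adjusted p = 0.0482).

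The falls were in H4C5 and H2BC9. Their models run more than a kilobase past the stem-loop, as do those of several genes that were not called. H4C5, an H4 gene with 1022 annotated bases beyond it, had 579 and 551 counts in shCTR, 396 and 443 in shMETTL3 and 472 and 547 in shMETTL14. Its log2 fold change in shMETTL3 against shCTR was -0.46 ± 0.096 (adjusted p = 0.00264). H2BC9, with 1640 bases beyond the stem-loop, had 519 and 470 counts in shCTR, 365 and 429 in shMETTL3 and 466 and 506 in shMETTL14, and its log2 fold change was -0.35 ± 0.099 (adjusted p = 0.0205). In both genes the shMETTL3 libraries lay below all 4 others. H2BC9 was not called with DESeq2 in place of edgeR (-0.35, adjusted p = 0.0823 by DESeq2). Nor was it called in edgeR with a correction for GC content and length (-0.25, adjusted p = 0.0539). Its log2 fold change was -0.25 without shMETTL3 replicate 1 and -0.30 without shCTR replicate 1. Other genes with long models did not pass: H2AC6, with 1128 bases beyond the stem-loop, differed by 0.09 ± 0.065 (adjusted p = 0.376) and H3C10, with 769, by 0.05 ± 0.071 (adjusted p = 0.703). H2AC11, with 1761 bases, differed by 0.01 ± 0.064 (adjusted p = 0.944). H4C8, with 1655, differed by 0.13 ± 0.069 (adjusted p = 0.235), and H2BC21, with 1729, by -0.08 ± 0.074 (adjusted p = 0.489).

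These calls changed when single libraries were left out, which also lowers the power of the test. A lost call alone therefore does not show that it rested on that library. With a library left out, the lone sample of that group is assumed to vary like the other groups. Without shMETTL3 replicate 1, 0 of the replication-dependent genes passed in the edgeR test. Without shMETTL3 replicate 2, 2 passed, both lower, and without shCTR replicate 1, 3 passed, of which 2 were higher. The median of the 41 was 0.06 to 0.18 over the 6 fits. The sizes for H2BC4 and H4C9 rested on shCTR replicate 1, without which they were 0.24 (adjusted p = 0.213) and 0.15 (adjusted p = 0.117). H4C5 passed in 12 of 13 alternative fits and H2BC12 in 11, while H2BC11 passed in 4.

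**Figure D4:**
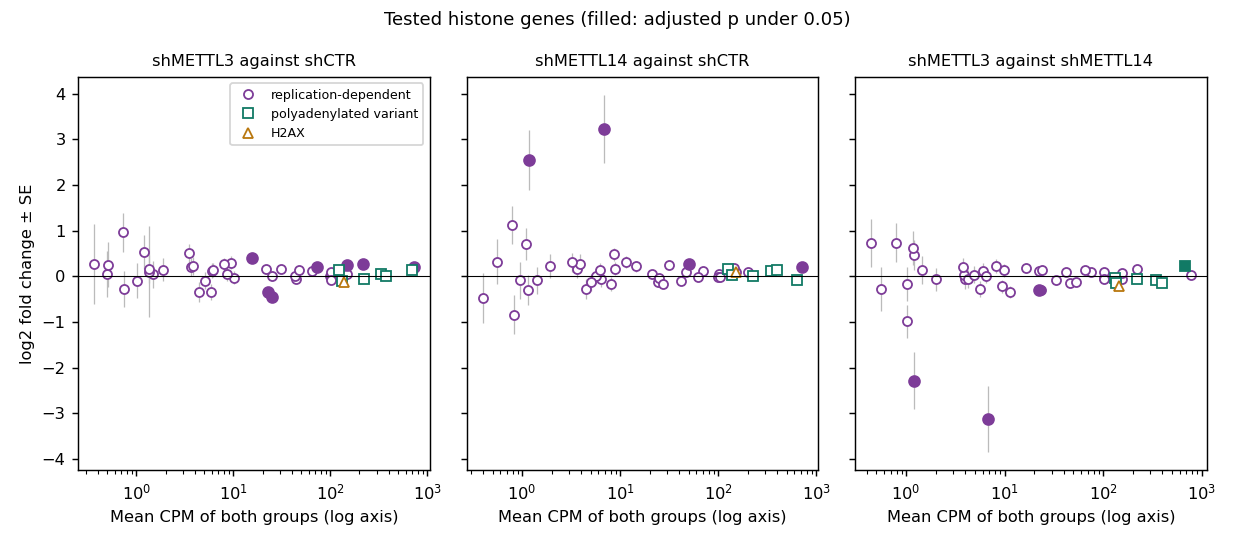
The log2 fold change with its standard error of each of the 48 tested histone genes in each comparison, against the mean CPM of the groups compared on a log axis, filled where the adjusted p was under the threshold. Most genes lie close to 0 at high levels, and the extreme values in the comparisons with shMETTL14 are H4C14 (log2 fold change 3.23 against shCTR) and H2AC18 (2.55).

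Knockdown of METTL14 gave fewer calls, and the largest came from 1 library. Of the 41 replication-dependent genes, 4 were higher in shMETTL14 than in shCTR (H4C14, H2AC18, H2BC5 and H1-2) and 0 were lower in the edgeR test; 9 of the 41 had an unadjusted p under 0.05, and DESeq2 called 1 gene in all. The 4 made up 9.76% of those tested, against 6.69% of all genes (3.43% higher and 3.26% lower). The median log2 fold change was 0.10, against 0.00 over all genes, and 24 of 41 lay above 0. None of the 6 variants passed, and 1 had an unadjusted p under 0.05.

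H1-2 and H2BC5 were higher in both shMETTL14 libraries. H1-2 rose from 672 ± 27.1 to 768 ± 22.6 CPM, a log2 fold change of 0.19 ± 0.055 (adjusted p = 0.0401). H2BC5 had 904 and 860 counts in shCTR, 962 and 1029 in shMETTL3 and 1079 and 1076 in shMETTL14, with a log2 fold change of 0.28 ± 0.070 in shMETTL14 (adjusted p = 0.0213). For both genes the shMETTL14 libraries did not overlap with shCTR. H1-2 also lay higher in shMETTL3, and these comparisons share the shCTR libraries. Without shMETTL14 replicate 1 or without shMETTL14 replicate 2, neither gene passed: the adjusted p of H1-2 then rose as far as 0.268 and that of H2BC5 as far as 0.195. H1-2 was also lost without shCTR replicate 1 or either shMETTL3 library.

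The other calls were confined to a block of histone genes at 1q21 in shMETTL14 replicate 2. H4C14, an H4 gene on chromosome 1 (GRCh38, 149832659 to 149839767, plus strand), had 462 counts in that library and 22 to 33 in the other 5. H2AC18 (149842188 to 149842736, minus strand) had 68 there and 5 to 11 elsewhere. H3C14, which lies between them and was not tested, had 45 there and 1 to 9 elsewhere. The pseudogene H2BC19P, next to H2AC18, had 120 there and 44 to 74 elsewhere, so each of these 4 neighbouring genes was highest in the same library. The nearest genes on either side were within the range of the other libraries: H2BC18 had 422 counts there and 368 to 473 elsewhere, H3C13 had 76 and 55 to 83, and H2BC20P had 1160 and 852 to 1173. H2BC21, farther along, was highest in the same library by a small margin, with 2198 counts against 1870 to 2061.

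The block has a mirror copy of nearly the same sequence farther along, and the copy did not move. H4C15 had 21 counts in shMETTL14 replicate 2 and 19 to 29 elsewhere, H2AC19 had 5 and 2 to 5, and H3C15 had 5 and 1 to 5. The share of sequence windows found in another gene was 94.9% for H4C14, 97.1% for H4C15, 100% for H2AC18 and 96.8% for H2AC19, so the counts of these copies are uncertain. H3C14 and H4C14 overlap on opposite strands. H3C14, H2BC19P, the mirror copies and the flanking genes were chosen after their values were seen. Of 11796 genes with over 100 counts in a library, 7 had 1 library more than 3 times above every other, among them H4C14, at 14.3 times the next library, and RN7SK, at 4.45 times, both in shMETTL14 replicate 2. The part of RN7SK carry-over in the block was not tested. Without that library no replication-dependent gene was called in shMETTL14 against shCTR, H4C14 had a log2 fold change of -0.23 (adjusted p = 0.856) and H2AC18 of 0.60 (adjusted p = 0.777), and the median of the 41 was 0.03. Both were also lost without shCTR replicate 1 (adjusted p = 0.102 and 0.139), and H2AC18 without shCTR replicate 2 (0.0647).

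**Figure D5:**
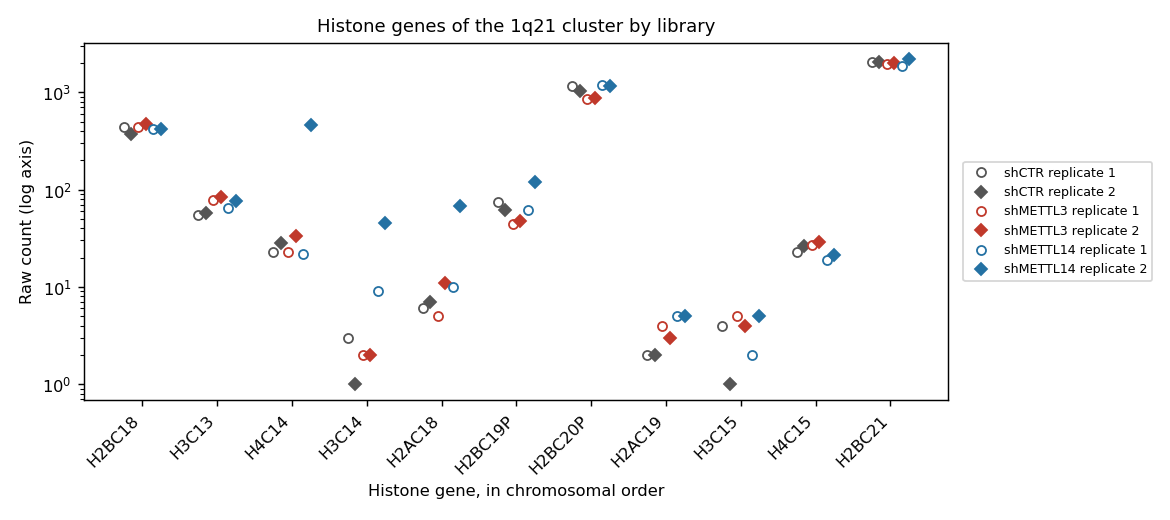
Raw counts on a log axis of 11 histone genes and pseudogenes at 1q21 in each of the 6 libraries, in chromosomal order. In shMETTL14 replicate 2, H4C14 had 462 counts, H3C14 45, H2AC18 68 and H2BC19P 120, above every other library, whereas the mirror copies H2AC19, H3C15 and H4C15 stayed at 5, 5 and 21.

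Directly compared, the knockdowns differed in few histone genes. Of 41 replication-dependent genes, 0 were higher and 3 were lower in shMETTL3 than in shMETTL14 (H4C14, H2AC18 and H2BC9), which was 7.32% against 12.1% of all genes (6.65% higher and 5.49% lower). The median log2 fold change was 0.02. Apart from the block at 1q21, this left H2BC9 at -0.31 ± 0.099 (adjusted p = 0.0472), which was not called without any of the 4 libraries compared. H4C5 differed by -0.30 ± 0.097 (adjusted p = 0.0514). Without shMETTL14 replicate 2, 0 replication-dependent genes were called; without shMETTL3 replicate 1 it was 1, and without shCTR replicate 1 or 2 it was 6 or 7.

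H3-3B was the only variant called in any comparison. It had 12891 and 12912 counts in shCTR, 14190 and 14960 in shMETTL3, and 12151 and 12495 in shMETTL14. Its level was 734 ± 16.4 CPM in shMETTL3 and 628 ± 13.4 in shMETTL14, a log2 fold change of 0.23 ± 0.054 (adjusted p = 0.00825), with shCTR between them at 652 and 674 CPM. Against shCTR the log2 fold change was 0.15 ± 0.054 in shMETTL3 (adjusted p = 0.0715) and -0.08 ± 0.054 in shMETTL14 (adjusted p = 0.44). The call was lost without shMETTL3 replicate 1, shMETTL3 replicate 2 or shMETTL14 replicate 1, where the adjusted p reached 0.143. Its partner H3-3A, which encodes the same protein, had 404 and 426 CPM in shMETTL14, above the other 4 libraries at 364 to 385, and did not pass in shMETTL14 against shCTR (0.15 ± 0.058, adjusted p = 0.144).

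The remaining variants lay close together across the groups. H2AZ1 differed by 0.04 ± 0.056 in shMETTL3 and 0.11 ± 0.056 in shMETTL14 against shCTR (adjusted p = 0.666 and 0.264). H2AZ2 differed by -0.05 and 0.01, MACROH2A1 by -0.10 and 0.04, and H1-10 by 0.13 and 0.17, with adjusted p from 0.271 to 0.932. H2AX had 131 and 136 CPM in shMETTL3, 157 and 154 in shMETTL14 and 131 and 160 in shCTR, and the difference between the knockdowns was -0.22 ± 0.076 (adjusted p = 0.0652). In H1-10 too the shCTR libraries lay far apart, at 106 and 131 CPM.

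The machinery that makes and ends histone mRNA had few calls. Of 20 genes for histone transcription and 3′ end processing, 1 rose and 2 fell in shMETTL3, 0 rose and 2 fell in shMETTL14, and 1 rose in shMETTL3 against shMETTL14. These were 15.0%, 10.0% and 5.0% of the list, beside 16.5%, 6.69% and 12.1% of all genes called in the same comparisons. The rise was in ZNF473, a zinc finger protein of the U7 particle, at 0.27 ± 0.088 against shCTR (adjusted p = 0.0401) and 0.29 ± 0.088 against shMETTL14 (adjusted p = 0.037). ZNF473 had 555 and 568 counts in shMETTL3 and 441 to 472 in the other 4 libraries. It was not called against shCTR with any 1 of the 6 libraries left out, where the adjusted p reached 0.183, nor against shMETTL14 with any of the 4 libraries compared left out, where it reached 0.26. The falls were in YY1AP1, a nuclear protein, at -0.42 ± 0.074 in shMETTL3 (adjusted p = 0.000712) and -0.25 ± 0.074 in shMETTL14 (adjusted p = 0.0477), and in NCBP1, a subunit of the nuclear cap-binding complex, at -0.31 ± 0.064 and -0.32 ± 0.064 (adjusted p = 0.00244 and 0.00444). YY1AP1 in shMETTL14 was called with shCTR replicate 2 left out and with no other single library left out, and its adjusted p reached 0.339. NCBP1 was lost in shMETTL3 without shMETTL3 replicate 2 (adjusted p = 0.0681) and in shMETTL14 without either of its libraries (adjusted p = 0.0926 and 0.0728). SLBP had 1902 and 1946 counts in shCTR, 1868 and 2004 in shMETTL3 and 1785 and 1858 in shMETTL14, and differed by -0.02 ± 0.065 and -0.09 ± 0.066. NPAT, the coactivator of histone gene transcription, differed by -0.07 and 0.10, and CASP8AP2, which joins it in the histone locus body, by 0.00 and -0.09. The U7 proteins LSM10 and LSM11 differed by 0.15 and 0.21 in shMETTL3 (adjusted p = 0.245 and 0.0742) and by 0.22 and 0.04 in shMETTL14. None of 9 genes for histone mRNA decay passed in any comparison, and ERI1, the exonuclease that trims the stem-loop, differed by -0.08 and 0.12.

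Histone chaperones moved in both directions in shMETTL3. Of 20 tested, 4 rose and 2 fell in shMETTL3, 0 rose and 2 fell in shMETTL14, and none passed between the knockdowns. In shMETTL3 this was 30.0% of the list beside 16.5% of all genes, and in shMETTL14 10.0% beside 6.69%. CHAF1B, a subunit of the chromatin assembly factor that deposits H3 and H4 behind the replication fork, rose by 0.32 ± 0.076 in shMETTL3 (adjusted p = 0.00714), while ASF1A, an H3 and H4 chaperone, fell by 0.24 ± 0.076 (adjusted p = 0.0382). NAP1L1, a chaperone of H2A and H2B, had 17072 and 16075 counts in shCTR, 14261 and 14753 in shMETTL3 and 12802 and 13230 in shMETTL14. It fell by 0.22 ± 0.053 in shMETTL3 (adjusted p = 0.00739) and by 0.36 ± 0.053 in shMETTL14 (adjusted p = 0.000217), without overlap among the groups. ASF1A was called with shCTR replicate 2 left out and with no other single library left out, where the adjusted p reached 0.291, and with a correction for GC content and length it was -0.10 (adjusted p = 0.294). CHAF1B was lost without shMETTL3 replicate 2 (adjusted p = 0.0915), and NAP1L1 was lost in shMETTL3 without either shMETTL3 library (adjusted p = 0.098 and 0.0891).

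Genes expressed in S phase were also measured because replication-dependent histone mRNA is made there. Of 27, 8 rose and 0 fell in shMETTL3 against shCTR, 1 rose and 0 fell in shMETTL14, and 7 rose and 0 fell in shMETTL3 against shMETTL14. The shares that rose were 29.6%, 3.7% and 25.9%, beside 8.73%, 3.43% and 6.65% of all genes called higher. E2F1, a transcription factor of the G1 to S transition, had 555 and 648 counts in shCTR, 852 and 871 in shMETTL3 and 633 and 681 in shMETTL14. It rose by 0.49 ± 0.089 in shMETTL3 (adjusted p = 0.00084), and E2F2, a related factor, rose by 0.46 ± 0.096 (adjusted p = 0.00239). TK1, thymidine kinase, was the gene that rose in shMETTL14, by 0.29 ± 0.070 (adjusted p = 0.0161). E2F2 was lost without shMETTL3 replicate 2 (adjusted p = 0.0665), and TK1 without shCTR replicate 1 (adjusted p = 0.0984), shMETTL14 replicate 1 (0.172) or shMETTL14 replicate 2 (0.129), whereas E2F1 passed in all 13 alternative fits. The summed level of the list was 3506 to 3526 CPM in shCTR, 3763 to 3769 in shMETTL3 and 3407 to 3588 in shMETTL14, and whether it bears on the histone share was not tested. In bulk RNA, a larger part of cells in S phase and more histone RNA per cell cannot be told apart.

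The 5 tested genes whose log2 CPM followed the summed replication-dependent level most closely over the 6 libraries were GON7, with a Pearson r of 0.997, DPY19L3-DT (0.996), HNRNPCP4 (0.994), a row that the table names Novel00043 (0.991) and STARD10 (0.989). None was a histone gene. These are the highest of 17686 values over 6 points that share their libraries and groups, and are given as a description only.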

How the data were processed

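Poly(A)-selected RNA of K562 cells was sequenced on a HiSeq instrument in 6 libraries, 2 for each of 3 groups. The authors deposited a raw count table, with whole-number read counts per gene; the submitters' processing notes name hg38 and HTSeq 0.6.1, and the aligner, the annotation release and strandedness were not given in the sources used here. Symbols came from a name table (56558 identifiers matched) and GENCODE 29 on GRCh38, and 5 members were named through GENCODE. Unnamed rows held 0.635% to 0.703% of counts.

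Genes passing filterByExpr (minimum count 10) were fitted in edgeR 4.0.16 (R 4.3.3) with TMM scaling, all 6 libraries in a single quasi-likelihood model without a replicate block, and Benjamini-Hochberg adjustment over 17686 genes at 0.05. The SE is the log2 fold change divided by the square root of F. The script was tested on simulated data. Alternatives were DESeq2 1.42.0, its size factors, library size alone, no filter, only the groups compared, a replicate block, a correction for GC content and length (mgcv 1.9.3), and each library left out.

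The members, lists and named genes were chosen with earlier results of these data known. Named were METTL3, METTL14, H2AX, the main variants, H1-10 and 7 histone mRNA factors, the 5 largest rises and falls among called replication-dependent genes in each comparison, the 8 highest per kilobase, and the largest rise and fall of each list; 1 named gene is not reported here. Intervals are not given for counts, and each library's total of 19292574 to 20115304 limits precision for genes under 100 counts. Replicates differed by more than sampling noise (mean chi-square per gene 2.45 to 5.03).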

Additional observations from a re-analysis of the deposited data

Results flagged for a closer look

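Beside METTL3 and METTL14 themselves, for 8 named genes the effect of METTL3 knockdown differed from that of METTL14 knockdown by the direct comparison of the groups (edgeR quasi-likelihood test, Benjamini-Hochberg over 17686 genes). H4C14 differed by -3.12 on the log2 scale (adjusted p = 0.00685) and H2AC18 by -2.29 (adjusted p = 0.021), and both rest on shMETTL14 replicate 2, without which they were 0.33 and -0.33 and not called. RN7SK, an RNA without a poly(A) tail, differed by -2.14 (adjusted p = 0.0108) and was at 0.05 without the same library. H2BC9 differed by -0.31 (adjusted p = 0.0472), H3-3B by 0.23 (adjusted p = 0.00825), ZNF473 by 0.29 (adjusted p = 0.037), E2F1 by 0.37 (adjusted p = 0.00718) and E2F2 by 0.44 (adjusted p = 0.00367). The groups of 2 libraries were too small for a test of outlying samples.
The calls of E2F1 and E2F2 were lost without shMETTL3 replicate 2 or shMETTL14 replicate 1, with an adjusted p as high as 0.144 and 0.0909, and that of E2F1 also without shMETTL3 replicate 1 (adjusted p = 0.0575).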

How the results depend on the processing

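With 2 libraries a group, the number of called replication-dependent genes was unstable while the median stayed above 0 in both comparisons with shCTR. In shMETTL3 against shCTR, 7 genes were called, 4 by DESeq2 and 0 to 6 with a library left out, and the median log2 fold change of 0.13 became 0.18 with library size alone and 0.0605 to 0.184 with a library left out. In shMETTL14 against shCTR, 4 were called, 1 by DESeq2 and 0 to 6 with a library left out, with a median of 0.0275 to 0.133. Between the knockdowns, 3 were called, 0 by DESeq2, 5 with only the compared groups fitted and 0 to 7 with a library left out, with a median of -0.0121 to 0.0843. The variants gave 1 call over the 3 comparisons, 2 with library size alone, 2 with the correction for GC content and length, and 0 to 6 with a library left out. The cause of these shifts was not tested, apart from the smaller number of samples. Without genes of mostly shared sequence the replication-dependent share in shMETTL3 was 0.216% against 0.219%.

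The replicate numbers did not pair the libraries: deviations of same-numbered libraries correlated at 0.0614, 0.00511 and -0.02. With the replicate block, 7, 5 and 4 replication-dependent genes and 2 variants were called.

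H4C14 reversed without shMETTL14 replicate 2, to -0.23 against shCTR and to 0.33 between the knockdowns, within ranges of -0.23 to 4.16 and -4.06 to 0.33 over the libraries left out. RN7SK reached 0.0493 without the same library, within -2.98 to 0.0493. Of 1454 alternative values of the named genes, 1281 kept their direction and their side of the threshold, 112 lost the call, 43 gained one, 3 reversed, and 15 others changed sign without a call. METTL3 in shMETTL3 and METTL14 in shMETTL14 kept their direction and calls in every alternative. Depth limits the genes under 10 counts, where a few reads decide the fold change.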
